A study of Homo sapiens with 8 samples.

Results

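ETV1, ETV4 and ETV5 are the PEA3 factors, a subfamily of the ETS transcription factors. The genes were chosen by name, and all 3 were found among the 58217 genes with a matched transcript and among the 18201 genes that passed the filter on low counts. Oligodendrocyte progenitor cells (OPCs) had been made from a human embryonic stem cell line, H9, which is an established line, and did not overexpress SOX10, the factor used elsewhere in the study to drive oligodendrocyte differentiation. They were grown for 2 days on Matrigel (a basement membrane extract, used as the control), on VN (the adhesion protein vitronectin) or on VNP2. VNP2 is a peptide designed from the integrin-binding stretch of vitronectin, with changed residues. The paper describes it as made in recombinant form, fused to mussel adhesive protein, and immobilized on chemically activated vessels. The part of this carrier and coupling in the differences was not tested. The OPC medium held basic fibroblast growth factor, retinoic acid, a Smoothened agonist and insulin on every substrate. Polyadenylated RNA of 2 Matrigel libraries (replicates 2 and 3), 3 VN libraries and 3 VNP2 libraries was used here, all from 1 cell line. The paper describes 3 samples for each substrate, and Matrigel replicate 1 was not among the libraries used. The question asked here is whether the PEA3 factors differed between the substrates, and whether ETV1 and ETV5 followed ETV4.

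The PEA3 factors share an ETS domain, which binds DNA at sites with a GGAA core, and acidic transactivation regions. Fibroblast growth factors (FGFs) act through receptor tyrosine kinases, RAS and the kinase ERK, and the transcription of the PEA3 genes is a commonly used readout of this pathway in the embryo. ERK activity also relieves their repression by Capicua (CIC), a DNA-binding repressor of these genes. The proteins are short-lived, since COP1 directs them to a ubiquitin ligase. In the nervous system the factors are known from motor and sensory neurons, and ETV5 also from glial progenitors.

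ETV1 (ENSG00000006468) lies at chr7:13891228-13991425, ETV4 (ENSG00000175832) at chr17:43527844-43579620 and ETV5 (ENSG00000244405) at chr3:186046308-186110318, all on the minus strand of GRCh38. The GENCODE annotation used lists 23, 11 and 14 transcripts for them. Promoter windows of RefSeq (GRCh38.p14) were matched for 1 of the 3 factors, ETV1, with 6 annotated starts. A pair of its upstream stretches is shown because the first holds the only match to a Capicua motif in the 6 windows, and the second precedes the RefSeq start that lies 10 bases from that of ETV1-205, the main ETV1 transcript in these libraries. Each is the 250 bases before a start, written 5′ to 3′ on the minus strand, and capitals mark the motif.
ETV1 upstream stretch 1, chr7:13991426-13991675: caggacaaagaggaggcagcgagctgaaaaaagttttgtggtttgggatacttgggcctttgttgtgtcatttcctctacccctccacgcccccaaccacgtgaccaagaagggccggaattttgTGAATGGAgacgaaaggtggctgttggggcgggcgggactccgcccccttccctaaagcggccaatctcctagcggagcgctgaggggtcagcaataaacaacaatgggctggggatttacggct
ETV1 upstream stretch 2, chr7:13989667-13989916: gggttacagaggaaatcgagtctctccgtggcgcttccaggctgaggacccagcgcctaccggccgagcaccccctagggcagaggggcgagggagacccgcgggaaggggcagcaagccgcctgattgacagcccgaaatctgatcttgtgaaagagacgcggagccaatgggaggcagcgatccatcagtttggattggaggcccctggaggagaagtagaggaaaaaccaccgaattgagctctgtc
The Capicua letters searched were TGAATGAA, TGAATGGA, TCAATGAA and TCAATGGA, and for the PEA3 factors AGGAAG, on both strands. The match TGAATGGA begins at base 126 of stretch 1, and stretch 2 held neither motif. AGGAAG was found in 2 further, overlapping ETV1 windows. Of 34943 promoter windows of 300 bases, 3.75% held a Capicua motif and 33.7% held AGGAAG. A match describes the letters only, and no binding was measured.

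The 8 libraries held 37997896 to 39429453 estimated counts, and between 2032 and 3407 of them fell on each PEA3 factor in each library. Libraries of 1 substrate differed by more than sampling noise (median chi-square per gene 0.743 to 3.93, where noise alone gives 0.455), and VN replicate 1 stood apart from the other VN libraries with 3.23 and 3.93. Among the OPC markers, OLIG1, OLIG2, NKX2-2, PDGFRA and PTPRZ1 were present, whereas SOX10 (20 estimated counts over all libraries) and GPR17 (12) were too low to test. CSPG4 and BCAN could be tested but were low, with means of 0.642 to 1.06 and 1.70 to 1.92 TPM by substrate. The summed level of the 9 OPC markers was 216 to 219 TPM on Matrigel, 284 to 298 on VN and 312 to 336 on VNP2. PTPRZ1, a receptor phosphatase, alone had means of 108, 151 and 178 TPM, whereas OLIG2 had 41.3, 54.0 and 50.8. On VNP2 against VN, 2 of the 7 OPC markers tested were called higher and none lower, where 3.07% of tested genes were called higher. Against Matrigel, 3 of the 7 were called higher on VN and 6 on VNP2, and none lower, where 5.81% and 7.45% of tested genes were called higher. TPM is Salmon's abundance measure, corrected for transcript length and library size.

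All 3 PEA3 factors were highest on VNP2. ETV5 and ETV4 were about 1.5 and 1.4 times as high on VNP2 as on VN, and did not differ detectably between VN and Matrigel. ETV1 differed between all 3 substrates, with VN between Matrigel and VNP2. Normalized read counts, that is, counts corrected for library size and average transcript length, are used from here on unless TPM is named, and spreads are SDs between libraries (n = 2, 3 and 3).

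ETV4, the founding member of the subfamily, had normalized counts of 2277 and 2126 on Matrigel, of 2110, 2194 and 2170 on VN, and of 3271, 3103 and 2850 on VNP2. The means were 2201 ± 107, 2158 ± 43.2 and 3075 ± 212. Every VNP2 library lay above every other library, and the VN libraries fell within the range of the Matrigel pair or just below it. ETV4 rose 1.42-fold from VN to VNP2 (log2 fold change 0.51, SE 0.0539, 95% interval of the fold 1.31 to 1.55, edgeR adjusted p = 0.000457). From Matrigel to VNP2 the log2 fold change was 0.48 (SE 0.0610, adjusted p = 0.000360). The VN to Matrigel difference was −0.03 with an interval of −0.16 to 0.11 (adjusted p = 0.80).

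ETV5, a factor known from testis and glial progenitors, had 2116 and 2106 normalized counts on Matrigel, then 2169, 2186 and 2001 on VN, and 3237, 3287 and 3179 on VNP2. Its means were 2111 ± 7.69, 2119 ± 102 and 3234 ± 53.8. The VNP2 libraries again stood clear of all others, and the Matrigel and VN libraries overlapped. The rise from VN to VNP2 was 1.53-fold (log2 0.61, SE 0.0431, interval of the fold 1.43 to 1.63, adjusted p = 4.70e-05), and ETV5 had the 17th smallest p of the 18201 genes in that comparison. Against Matrigel the log2 fold change on VNP2 was 0.62 (SE 0.0489, adjusted p = 1.32e-05). Between VN and Matrigel it was 0.01, with an interval of −0.10 to 0.11 (adjusted p = 0.96). ETV5-AS1, the antisense gene at the locus, had 0 estimated counts in every library.

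ETV1 had 2420 and 2319 normalized counts on Matrigel, then 2810, 2838 and 2826 on VN, and 3174, 3376 and 3517 on VNP2. The means were 2369 ± 70.9, 2825 ± 14.3 and 3356 ± 172, with no overlap between the libraries of different substrates. ETV1 rose 1.19-fold from Matrigel to VN (log2 0.25, SE 0.0497, adjusted p = 0.00726) and 1.42-fold from Matrigel to VNP2 (log2 0.50, SE 0.0498, adjusted p = 6.56e-05). From VN to VNP2 it rose 1.19-fold (log2 0.25, SE 0.0436, adjusted p = 0.00856). The call between VN and Matrigel was lost without Matrigel replicate 3, when the log2 fold change was 0.22 and the adjusted p 0.0839. Within VNP2, the library with the lowest ETV1 count, replicate 1, had the highest ETV4 count, and replicate 3 had the reverse.

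**Figure D1:**
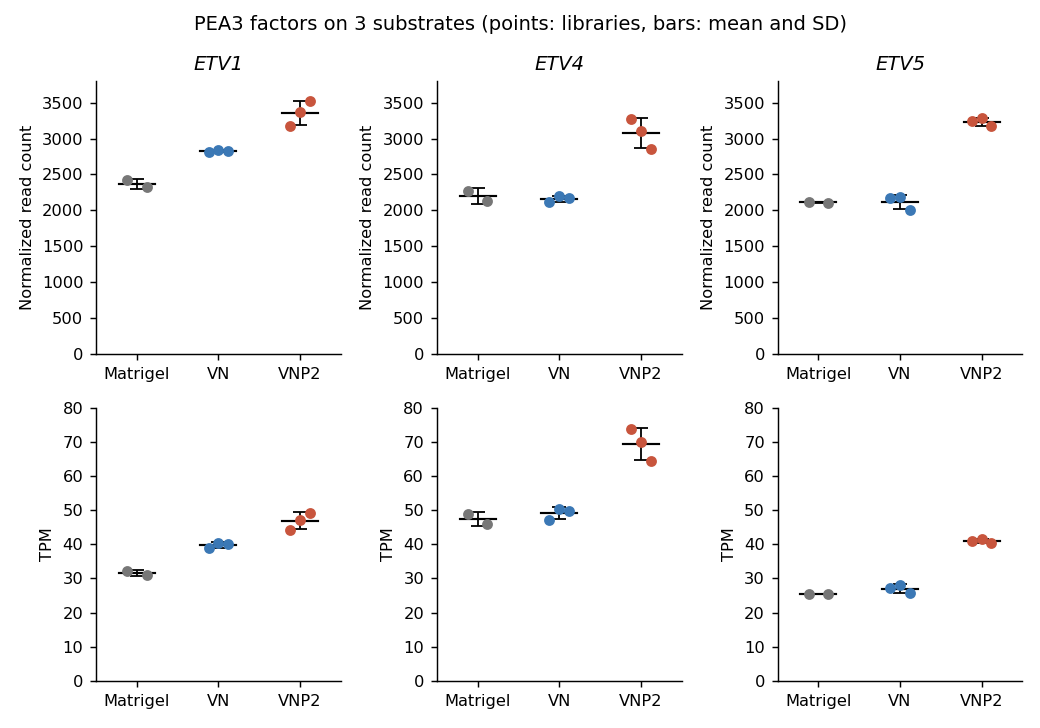
Normalized read counts (upper row) and TPM (lower row) of ETV1, ETV4 and ETV5 in each library on Matrigel, VN and VNP2; points are libraries, and bars are the mean and SD. The VNP2 points of ETV4 (2850 to 3271) and ETV5 (3179 to 3287) lie above all other points of the same gene, whereas ETV1 has separate levels on the 3 substrates.

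These calls are read against the whole table. Between VN and VNP2, all 3 factors were called higher on VNP2, where 3.07% of tested genes were called higher, and none of their libraries overlapped, where 12.2% of genes had every VNP2 library above every VN library. Against Matrigel, all 3 were called higher on VNP2 (7.45% of tested genes were) and without overlap (23.1%). On VN, 1 of 3 was called higher than on Matrigel, ETV1 (5.81% of genes), and the same gene had no overlap (21.7%). Across the 3 substrates in 1 test, ETV5 had an adjusted p of 6.23e-06, ETV4 of 0.000141 and ETV1 of 0.000169, where 19.3% of tested genes were called. The comparisons with Matrigel share the 2 Matrigel libraries, and so are not independent of each other. In RNA of whole cultures, fewer cells of a type and less RNA per cell cannot be told apart.

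Compared per length, ETV4 was the most abundant of the 3 on every substrate, followed by ETV1 and then ETV5. ETV4 had 47.4 ± 2.14 TPM on Matrigel, 49.1 ± 1.70 on VN and 69.4 ± 4.64 on VNP2. ETV1 had 31.6 ± 0.837, 39.8 ± 0.786 and 46.9 ± 2.499 TPM. ETV5 had 25.5 TPM in both Matrigel libraries, 27.1 ± 1.18 on VN and 41.0 ± 0.622 on VNP2. Within each substrate the libraries of neighbouring genes in this order did not overlap, and the nearest values were 44.3 TPM for ETV1 and 41.6 for ETV5 on VNP2.

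The balance between the factors was measured as the log2 ratio of their normalized counts within a library, which is independent of library size. The ratio of ETV5 to ETV4 was −0.11 and −0.01 on Matrigel, then 0.04, −0.01 and −0.12 on VN, and −0.01, 0.08 and 0.16 on VNP2. The 3 ranges overlapped, and no difference between the substrates was detected (exact permutation test over all 560 assignments of the libraries, p = 0.25). Without the correction for transcript length the same test gave an adjusted p of 0.0821. From VN to VNP2 its mean moved by 0.10, which is near the SD within VNP2 (0.0865).

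The ratio of ETV1 to ETV4 was 0.09 and 0.13 on Matrigel and 0.41, 0.37 and 0.38 on VN. On VNP2 it was −0.04, 0.12 and 0.30, the widest spread of the 3 substrates. The VN libraries lay above all others, but the test across substrates did not pass (exact permutation test, p = 0.0786, 0.118 after adjustment over the 3 ratios). Between VN and VNP2 alone p was 0.1, the smallest that 3 libraries against 3 allow.

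The ratio of ETV5 to ETV1 was −0.19 and −0.14 on Matrigel, then −0.37, −0.38 and −0.50 on VN, and 0.03, −0.04 and −0.15 on VNP2. It was lowest on VN in all 3 libraries and differed between the substrates (exact permutation test, p = 0.0107, adjusted p = 0.0321). The smallest p this design allows is 0.00357. ETV5 was therefore 0.708 to 0.772 times ETV1 on VN and 0.904 to 1.02 times ETV1 on VNP2. The call was lost on leaving out any library but VNP2 replicate 3, with adjusted p up to 0.129.

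**Figure D2:**
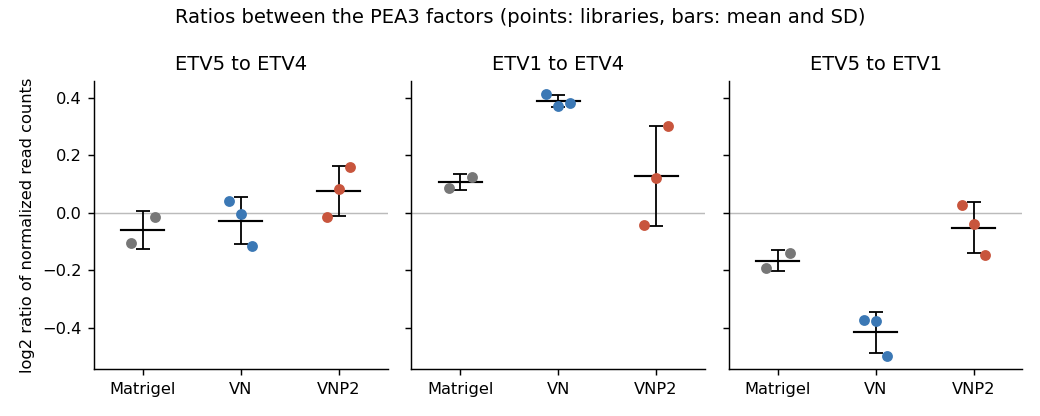
The log2 ratio of normalized read counts between pairs of PEA3 factors in each library, by substrate; points are libraries, bars are the mean and SD, and the grey line marks equal counts. ETV5 to ETV4 stays within −0.12 to 0.16, whereas both ratios that involve ETV1 set the 3 VN libraries apart from the others.

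Salmon's estimates per transcript add which forms of each gene were present. ETV5 was nearly all ETV5-201, with 22.02 and 23.5 TPM on Matrigel, then 23.1, 24.8 and 24.0 on VN, and 37.2, 36.7 and 35.9 on VNP2. Its share of the gene was 89.2% ± 4.10, 88.6% ± 4.14 and 89.4% ± 1.39, with no difference detected (exact permutation test, adjusted p = 0.964).

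ETV1 was spread over more transcripts. ETV1-205 had 12.01 and 12.7 TPM on Matrigel, then 13.4, 15.5 and 15.1 on VN and 16.3, 19.5 and 17.9 on VNP2. The 3 ranges did not overlap, but the share of all transcripts without overlap was not computed. Among genes, 21.7% had every VN library above every Matrigel library, and 12.2% every VNP2 library above every VN library. It held 39.1% ± 2.56, 36.8% ± 2.20 and 38.2% ± 2.78 of ETV1 (exact permutation test, adjusted p = 0.884). ETV1-207 had 9.64 and 7.83 TPM on Matrigel, then 12.9, 12.8 and 13.4 on VN and 13.9, 11.8 and 14.6 on VNP2, so its VN and VNP2 libraries overlapped. Among its differences from ETV1-205 are its first exon (chr7:13988680-13988873) and exon 8 (chr7:13911239-13911307, 69 bases), neither of which overlaps an exon of ETV1-205.

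ETV4 had 3 transcripts with at least 10% of the gene. ETV4-201 had 13.2 and 15.5 TPM on Matrigel, then 24.3, 27.2 and 29.5 on VN, and 34.4, 42.0 and 42.3 on VNP2, without overlap. Here too no share over all transcripts was computed, and the shares among genes were 21.7% for VN above Matrigel and 12.2% for VNP2 above VN. ETV4-202 had 15.9 and 13.4 TPM on Matrigel, then 10.3, 8.29 and 3.44 on VN, and 10.6, 3.96 and a listed 0 on VNP2. ETV4-201 held 30.4% ± 4.75 of ETV4 on Matrigel, 54.9% ± 3.92 on VN and 57.4% ± 9.71 on VNP2, which did not pass after adjustment (exact permutation test, p = 0.0286, adjusted p = 0.0857). All 2182 bases of ETV4-202 lie within ETV4-201, which has 247 more, so reads can set them apart only at those bases. Together they held 61.3% ± 2.42, 70.0% ± 3.64 and 64.1% ± 2.65 of ETV4 (adjusted p = 0.182 in the same test). ETV4-205, the third of them, had 9.16 and 7.09 TPM on Matrigel, 3.50 to 6.997 on VN and 8.47 to 10.97 on VNP2.

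**Figure D3:**
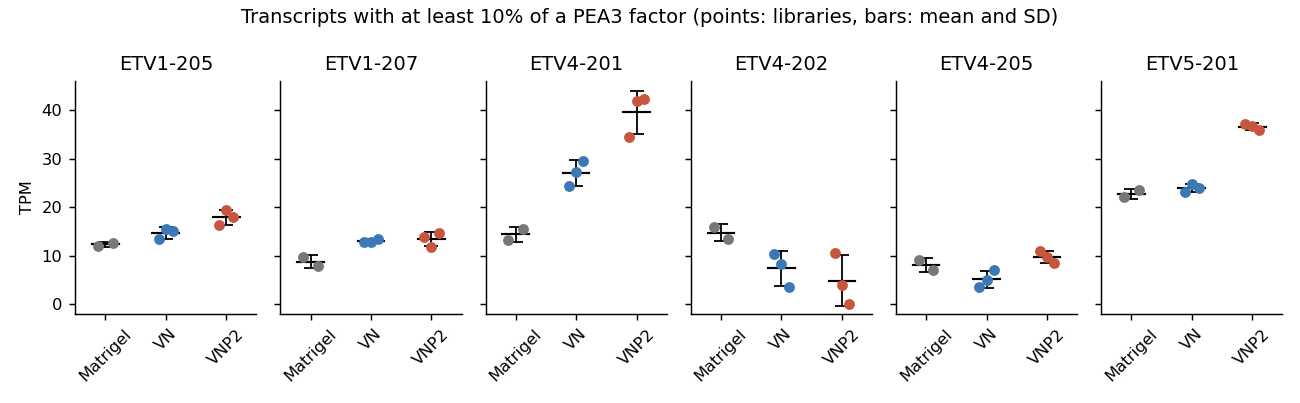
TPM of the 6 transcripts that hold at least 10% of ETV1, ETV4 or ETV5 over all libraries, by substrate; points are libraries, and bars are the mean and SD. ETV5-201 repeats the pattern of its gene, ETV1-205 has separate levels on the 3 substrates, and ETV4-201 is higher on VN than on Matrigel while ETV4-202 is lower.

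The genes around the PEA3 factors were followed upstream to downstream. Of 27 FGF receptors and ligands, 18 could be tested. On VNP2 against VN, 3 were higher and none lower (median log2 fold change 0.12, against −0.0026 over all genes). In that comparison 3.07% of tested genes were called higher and 2.10% lower. FGFR2, a receptor tyrosine kinase for FGFs, rose from 1938 ± 55.7 on VN to 2552 ± 98.8 on VNP2 (log2 0.40, SE 0.0459, adjusted p = 0.000740) and had 1501 ± 53.7 on Matrigel. FGFR1, a further receptor of the family, rose from 11460 ± 216 to 13350 ± 432 (log2 0.22, SE 0.0333, adjusted p = 0.00367). FGF10, a secreted ligand of FGFR2, rose from 456 ± 20.0 to 590 ± 14.4 (log2 0.37, SE 0.0645, adjusted p = 0.00800). FGF12, an intracellular relative of the FGFs that acts on sodium channels, had a log2 difference of 0.34 (adjusted p = 0.20). FGFR3 had 2771, 2409 and 2153 on Matrigel, VN and VNP2 and fell against Matrigel on both (adjusted p = 0.0224 and 0.000651), while the fall between VN and VNP2 did not pass (adjusted p = 0.0750). FGFR4 was low, at 63.1, 29.3 and 36.7. Against Matrigel, 4 receptors or ligands were higher and 3 lower on VN, and 8 were higher and 2 lower on VNP2. Of tested genes, 5.81% and 7.45% were called higher on VN and VNP2, and 9.41% and 9.13% lower.

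The RAS and ERK cascade, a list of 23 adaptors, GTPases, kinases, a phosphatase and regulators of RAS, held 1 gene higher and none lower on VNP2 than on VN (median log2 fold change 0.0082). Of all tested genes, 3.07% were called higher and 2.10% lower there, and 1 of 23 is near the former share. The gene called was RPS6KA3, an ERK-activated kinase (log2 0.18, SE 0.0406, adjusted p = 0.0288). HRAS (0.18, adjusted p = 0.25), the adaptor SHC1 (−0.17, adjusted p = 0.073) and NRAS (−0.13, adjusted p = 0.088) did not pass. SHC1 was lower than on Matrigel on both VN (−0.43) and VNP2 (−0.60), with adjusted p = 0.000286 and 2.07e-05.

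Of 13 feedback inhibitors of ERK signalling, 8 were higher and none lower on VNP2 than on VN (median log2 fold change 0.26). Of all tested genes, 3.07% were called higher and 2.10% lower in that comparison. SPRY4, a Sprouty inhibitor of receptor tyrosine kinase signalling, had 1415, 1540 and 1552 normalized counts on VN and 2775, 2527 and 2336 on VNP2 (log2 0.76, SE 0.0649, adjusted p = 0.000116). SPRY2 rose by a log2 of 0.69 (adjusted p = 5.27e-05) and SPRY1 by 0.67 (SE 0.0493, adjusted p = 5.56e-05). IL17RD, a membrane inhibitor of FGF signalling also called Sef, rose from 10550 ± 350 to 14952 ± 1095 (log2 0.50, SE 0.0492, adjusted p = 0.000287). Without VN replicate 1 the count was again 8 higher and none lower. Between VN and Matrigel, 1 of the 13 was lower and none higher, and the adjusted p of these 4 genes ranged from 0.14 to 0.65. Against Matrigel, 6 of the 13 were higher and none lower on VNP2 (median 0.20). Over all tested genes, 9.41% were called lower and 5.81% higher on VN than on Matrigel, and 9.13% and 7.45% on VNP2.

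Genes induced early by ERK and other growth factor signals gave other values than the PEA3 factors in the comparisons with Matrigel. Of 15 tested, 14 were lower and 1 higher on VN (median log2 fold change −0.91), and 12 were lower and 1 higher on VNP2 (−0.88). Of all tested genes, 9.41% were called lower and 5.81% higher on VN, and 9.13% lower and 7.45% higher on VNP2. FOS, a subunit of the AP-1 factor, had 176 and 211 normalized counts on Matrigel, then 62.9, 68.5 and 71.4 on VN and 100, 111 and 104 on VNP2. EGR1, an immediate early zinc finger factor, had 266 and 280, then 109, 74.3 and 90.7, then 171, 150 and 121. The libraries of FOS and EGR1 were thus highest on Matrigel and lowest on VN, whereas ETV4 and ETV5 had overlapping libraries on Matrigel and VN. Between VN and VNP2, 5 of the 15 were higher and 1 lower on VNP2 (median 0.27), and without VN replicate 1 there were 5 and 3. The higher ones included FOS at a log2 of 0.64 (SE 0.135, adjusted p = 0.0226), EGR1 at 0.69 (SE 0.168, adjusted p = 0.0439) and PHLDA1 at 0.47 (SE 0.0778, adjusted p = 0.00592). FOSL2, another AP-1 subunit, had a log2 difference of −0.63 (adjusted p = 0.0815). Its mean was lowest on VNP2, with 1161, 272 and 174 on Matrigel, VN and VNP2. The list was thus mixed, and 9 of the 15 had a positive log2 fold change on VNP2 against VN.

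**Figure D4:**
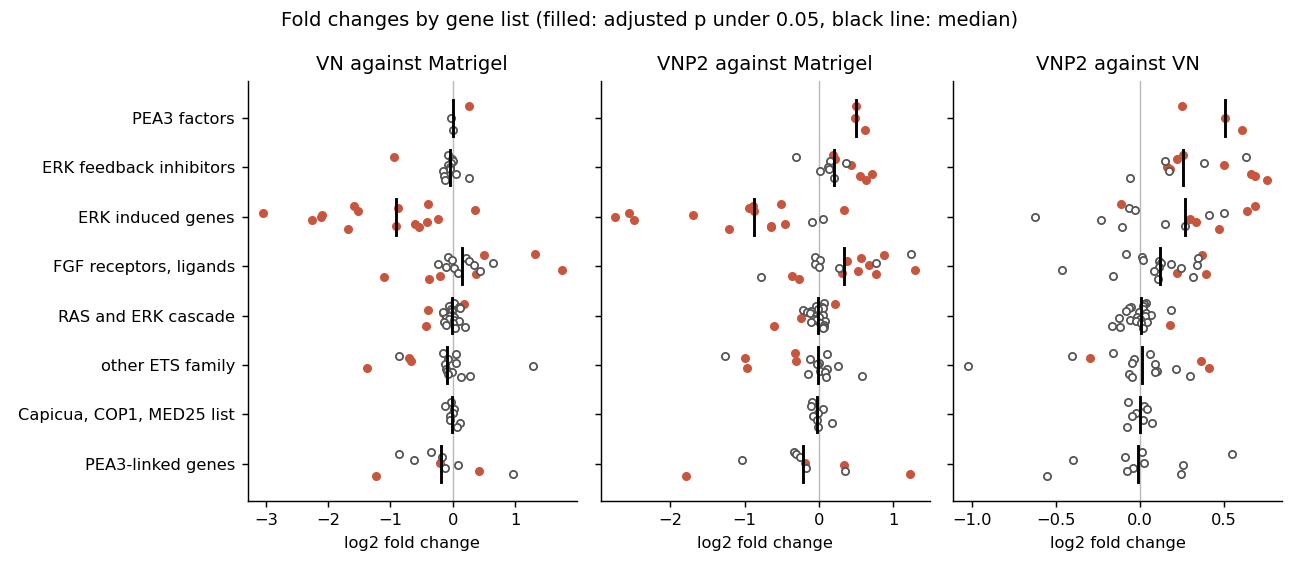
The log2 fold change of every tested gene of the PEA3 factors and of 7 gene lists, in the 3 comparisons; filled points have an adjusted p under 0.05, open points do not, and black lines are medians. Horizontal scales differ between the panels. The feedback inhibitors have a median of −0.05 on VN against Matrigel and of 0.26 on VNP2 against VN, and the ERK induced genes have medians of −0.91 and 0.27 there.

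The 25 other ETS genes, which share the DNA-binding domain, included 16 that could be tested. Between VN and VNP2, 2 were higher on VNP2, 1 was lower, and 13 did not pass (median log2 fold change 0.01). The shares over all tested genes were 3.07% called higher and 2.10% called lower. ETS1 had 2653 and 2774 normalized counts on Matrigel, then 964, 1122 and 1052 on VN, and 1462, 1378 and 1327 on VNP2. It rose from VN to VNP2 (log2 0.41, SE 0.0630, adjusted p = 0.00404), like ELK3, a repressor that can be switched to an activator by ERK (0.36, SE 0.0567, adjusted p = 0.00449). Both were lower on VNP2 than on Matrigel, ETS1 by a log2 value of −0.97 (adjusted p = 4.60e-06) and ELK3 by −0.31 (adjusted p = 0.00634). ELF4 was lower on VNP2 than on VN in edgeR (−0.30, SE 0.0665, adjusted p = 0.0294), whereas DESeq2 called none of the 16 lower, and ETS2 did not pass (0.22, adjusted p = 0.155). The mean ETS2 count here was 0.710 times the authors' normalized count, so its values rest on part of the gene's signal. Against Matrigel, 3 other ETS genes were lower on VN and 4 on VNP2, and edgeR called none higher on either. Over all tested genes, 9.41% and 9.13% were called lower on VN and VNP2, and 5.81% and 7.45% higher. On VNP2, 1 of the 16 was higher than on Matrigel at an unadjusted p under 0.05 and none by DESeq2 or limma. Without VN replicate 1, 1 was called higher on VN than on Matrigel.

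Of 8 genes for Capicua, the turnover of PEA3 proteins and their coactivator, edgeR called none in any comparison, nor did DESeq2 or limma. At an unadjusted p under 0.05 none differed between VN and VNP2, 1 was lower on VN than on Matrigel, and 1 was higher and 1 lower on VNP2 than on Matrigel. CIC had 3908 and 3753 normalized counts on Matrigel, then 3970, 3777 and 3880 on VN and 4150, 3837 and 3968 on VNP2. COP1 had 2085 and 2165, then 2041, 2213 and 2136, then 2130, 2033 and 2136. MED25, the Mediator subunit through which PEA3 factors contact the transcription machinery, had 3828 and 3776, then 4021, 3903 and 3977, then 3670, 3921 and 3696. The ranges overlapped between VN and VNP2 for each, and the log2 differences were 0.04, −0.02 and −0.08 (adjusted p = 0.64, 0.85 and 0.29). ATXN1, a protein partner of CIC, and DET1 and CUL4A, parts of the ubiquitin ligase with COP1, differed by −0.07 to 0.07. These are RNA levels and say nothing of the activity of the proteins.

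Of 10 genes linked to PEA3 factors in the kidney bud and in motor neurons, none was called between VN and VNP2 by edgeR, DESeq2 or limma (median log2 fold change −0.01), and 1 was higher at an unadjusted p under 0.05. CDH8, an adhesion molecule, had a log2 difference of 0.55 (SE 0.254, adjusted p = 0.26), and MET, the receptor of hepatocyte growth factor, of 0.26 (SE 0.0839, adjusted p = 0.12). CXCR4, a chemokine receptor, and MYB, a transcription factor, had −0.09 and −0.08 (adjusted p = 0.60 and 0.71). Against Matrigel, 1 of the 10 was higher and 2 lower on VN, and 2 were higher and 2 lower on VNP2. The shares over all tested genes were 5.81% higher and 9.41% lower on VN, and 7.45% and 9.13% on VNP2. MET was among those higher on VNP2 (0.34, adjusted p = 0.033).

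Likeness over the 8 libraries was measured as the root mean square distance between log2 normalized counts, each centred on its gene's mean, among 12995 other genes with a mean of at least 100. Nearest to ETV4 was IL17RD (distance 0.0361), followed by GNAI1 (an inhibitory G protein subunit), ANO1 (a calcium-activated chloride channel), NEFL (neurofilament light chain) and ID3 (an inhibitor of basic helix-loop-helix factors). Nearest to ETV5 was ID3 (0.0458), followed by ERMP1, FOXJ1 (a regulator of motile cilia), LAMA2 (a laminin chain) and TMEM132C. The nearest genes to ETV1 were JARID2 (0.0384), which acts with Polycomb repressive complex 2, BMPR1B (a BMP receptor), PTPRG (a receptor tyrosine phosphatase), SHISA7 and CC2D2A. ETV5 ranked 18th in likeness to ETV4 and ETV4 23rd in likeness to ETV5, whereas ETV1 ranked 304th and 203rd. The genes share the same libraries, and these distances are descriptions without a test.

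Markers of other cell types also differed in summed level between the substrates. Their calls on VNP2 against VN stand beside 3.07% of all tested genes called higher and 2.10% called lower. The summed level of 8 neuron markers was 728 to 760 TPM on Matrigel, 821 to 875 on VN and 888 to 909 on VNP2, and 2 of 8 were called higher on VNP2 than on VN. The 7 motor neuron markers summed to 18.3 to 19.4, 25.6 to 27.9 and 35.2 to 36.4 TPM, with 1 of 5 tested called higher on VNP2 than on VN, while MNX1 and LHX3 had 13 and 5 estimated counts in all libraries together. The 6 neural crest markers summed to 3.13 to 3.77, 4.31 to 4.84 and 5.36 to 5.90 TPM, with none of 3 tested called between VN and VNP2 (0 at an unadjusted p under 0.05 in edgeR, and 0 by DESeq2 or limma) and with FOXD3, SOX10 and PAX3 too low to test. Mesenchymal markers summed to 512 to 521, 579 to 616 and 501 to 536 TPM, and 2 of 8 were higher and 1 lower on VNP2 than on VN. COL1A1 alone had means of 159, 116 and 63.1 TPM, whereas COL3A1 had 100, 114 and 127. On VNP2 against Matrigel, 5 of the 8 were called higher and 2 lower, where 7.45% and 9.13% of tested genes were. The 6 pluripotency markers summed to 92.1 to 97.0, 83.3 to 85.3 and 76.3 to 79.8 TPM, with 2 of 6 called lower on VNP2 than on VN. LIN28A alone had means of 56.3, 40.5 and 37.1 TPM, whereas DPPA4 had 31.0, 33.3 and 36.9. On VN against Matrigel, 1 of the 6 was called lower (9.41% of tested genes were), but 5 had a positive log2 fold change (median 0.24). Astrocyte markers summed to 20.6, 18.9 to 20.5 and 23.3 to 26.0 TPM, with 1 of 3 tested called higher on VNP2 than on VN and GFAP and AQP4 too low to test. SLC1A3 alone had means of 16.4, 15.5 and 20.9 TPM, and only 1 of the 3 had a positive log2 fold change on VNP2 against VN (median −0.10). The part of these cells in the PEA3 values was not tested.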

How the data were processed

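Polyadenylated RNA of 8 libraries (2 Matrigel, 3 VN, 3 VNP2) was analysed. Reads were trimmed by the authors with Trim Galore and assigned by Salmon to the transcripts of GENCODE v32 (GRCh38). The authors deposited Salmon's estimated counts and TPM values per transcript, not normalized between libraries. The authors also deposited a normalized count table per gene, a signal made with DESeq2 1.27.12 through tximport.

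Here, transcripts were matched by identifier to GENCODE v29 (205225 of 226608, holding 98.8 to 98.9% of the counts of each library), summed per gene and rounded. For the members, the normalized counts lay within 0.3% of the deposited table. Some list genes had less, with a mean of 0.710 times the deposited one for ETS2 and 0.944 for SPRY1. Low genes were removed by filterByExpr (at least 10 counts, at least 15 in total), and the rest were fitted in 1 quasi-likelihood model of edgeR 4.0.16 (R 4.3.3) with TMM normalization, offsets for transcript length and no replicate block. A gene was called at a two-sided Benjamini-Hochberg adjusted p under 0.05, adjusted over all 18201 genes. Ratios and transcript shares were tested with exact permutation tests, one-sided in the between-substrate sum of squares and adjusted over 3 tests. For the ratios, pairs of substrates were tested two-sided on the difference of means, without adjustment. Summed TPM was used for levels between genes. Alternatives used DESeq2 1.42.0, limma 3.58.1 on log2 of the deposited normalized counts plus 1, RLE normalization, no length offsets, other filters, a replicate block, only the libraries of a pair, and the removal of single libraries. Chosen after seeing the data were ETV4-201 with ETV4-202, and the lists without VN replicate 1. The scripts were tested on simulated data.

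Named genes were the members, CIC, COP1, MED25, FGFR1 to FGFR4, from each list the genes with the largest VNP2 to VN difference (at most 4, mean of at least 100), the 5 nearest to each member, and transcripts with at least 10% of a member. ETV5-AS1 was named outside this rule, after its values were seen, and the marker genes come from the marker lists. The members and lists were chosen with earlier results of these data known. Nothing says that the libraries came from separate cultures, so p-values measure only the spread between them.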

Additional observations from a re-analysis of the deposited data

How the results depend on the processing

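With the 16 alternatives run per comparison, ETV1, ETV4 and ETV5 were called higher on VNP2 than on VN and than on Matrigel in every one. Between VNP2 and VN the log2 fold change ranged from 0.194 to 0.287 for ETV1, from 0.464 to 0.565 for ETV4 and from 0.572 to 0.635 for ETV5. Between VN and Matrigel, ETV1 was called in 15 of 16, with the exception of leaving out Matrigel replicate 3. ETV4 and ETV5 were called there in none, and the sign of their values near 0 changed: ETV4 had 0.0253 without length offsets, and −0.0804 to 0.0218 with 1 library left out, while ETV5 had −0.00406 without length offsets, −0.00451 with a replicate block, and −0.0182 to 0.0445 with 1 library left out. The cause was not tested.

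Counts of called genes depended on which library was left out. With 1 library left out, VN against Matrigel gave 1184 to 3911 (2770 with all libraries), VNP2 against Matrigel 1611 to 3653 (3017), VNP2 against VN 544 to 1979 (942) and the test across substrates 1881 to 4981 (3517). The Matrigel counts moved by over 1.5 times without Matrigel replicate 2 (1225 and 1631) or 3 (1184 and 1611), and VNP2 against VN without VN replicate 1 (1979), 2 (582) or 3 (580) or VNP2 replicate 1 (544) or 3 (548). The count across substrates was 1919 and 1881 without Matrigel replicate 2 and 3.

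Deviations of same-numbered libraries from the means of their substrates had correlations of −0.133 to 0.161. Those means rest on only 2 or 3 libraries, so these values cannot tell whether the numbers pair the samples. The replicate block changed no call of a member. It gave 3405, 3155 and 1167 called genes in VN against Matrigel, VNP2 against Matrigel and VNP2 against VN. The fit without the block gave 2770, 3017 and 942.

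The ETV5 to ETV1 ratio had adjusted p = 0.0286 to 0.129 with 1 library left out (exact permutation test), and passed only without VNP2 replicate 3. VN against VNP2 with a replicate block gave an adjusted p = 0.375 for it, in an exact test of 3 pairs that cannot go below 0.25 unadjusted. The ETV1 to ETV4 ratio had 0.0286 to 0.257, and passed only without VNP2 replicate 3 (0.0286). For ETV5 to ETV4 the adjusted p was 0.190 to 0.5 with 1 library left out. Without length offsets the ETV5 to ETV4 ratio had 0.0821 (0.25 with them), ETV1 to ETV4 0.0804 and ETV5 to ETV1 0.0107. No share of a main transcript passed under any alternative. Matrigel has 2 libraries, so its spread is the least certain.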
